A study of Mus musculus with 8 samples.

Results

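The genes of intraflagellar transport (IFT) and of the BBSome were followed in whole testis of wild-type and Iqch mutant mice. The members are the protein-coding genes of the deposited table whose symbols begin with Ift or Bbs and a number, together with Ttc8, Traf3ip1, Cluap1, Wdr19, Wdr35, Tulp3, Dync2h1, Dync2i1, Dync2i2, Dync2li1, Kifap3 and the gene once called Hspb11 and now Ift25. The rule used names only and found 38 of the 17127 genes of the table. By role, they are 12 genes of the IFT-B core, 6 of the IFT-B periphery, 6 of IFT-A and its adaptor, 7 BBSome subunits, 2 chaperonin-like BBS genes and 5 motor subunits. RNA-seq was done on adult testes, with 4 libraries labelled wild-type and 3 labelled Iqch-/- (knockouts 1, 2 and 4, called mutants 1, 2 and 4 here). Mutant 3 is not analysed here. The study's methods give males of 4 months in both groups. The mutants were homozygous for a small frameshift deletion made with CRISPR/Cas9 in exon 19 of Iqch in B6CBAF1 (C57BL/6xCBA) zygotes. Of 2 such edited lines, mu5 and mu7, the study's phenotyping and its coverage plot refer to mu7, and the sample labels name neither. A whole testis holds germ cells of every stage and somatic cells, and nothing in the labels says that each library came from a separate mouse, so p-values measure the spread between these libraries.

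IFT is the to-and-fro traffic of protein trains along the microtubules of a growing cilium or flagellum. Kinesin-2 carries IFT-B trains towards the tip, dynein-2 with IFT-A carries them back, and the BBSome, an adaptor that rides on the trains, moves membrane proteins. In the testis the trains serve the sperm tail that spermatids build. Some IFT proteins also work at the manchette, the microtubule skirt that shapes the spermatid head, and somatic cells of the testis bear primary cilia.

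The values are CPM (a gene's reads for each 1000000 that its library held). If the smallest step of a library's values is 1 read, the libraries held 32064384 to 37551057 reads. Iqch itself was at 208 ± 11.3 CPM in wild-type (SD, n = 4) and 67.3 ± 2.25 CPM in mutant libraries (SD, n = 3), a log2 fold change of −1.63 (SE 0.05, limma FDR 1.9e-10), so RNA of the edited gene was still present. Many marker genes of the cells of the testis moved between the genotypes too. For comparison, 36.3% of all 17126 genes tested were called higher and 14.2% lower (limma FDR below 0.01). The summed CPM of 10 spermatid markers was 21401 to 22633 per wild-type and 13839 to 15845 per mutant library, and 9 of the 10 were called lower. Tnp1, Tnp2, Prm1 and Prm2 made up most of this sum, at 62.5% to 66.8% of their wild-type level. The other spermatid markers kept more, from 75.9% for Akap4 to 90.3% for Spaca1, the marker without a call. The sum of 8 spermatocyte markers was 4799 to 4899.9 and 4072 to 4153 CPM, with 3 (37.5%) called lower, Ldhc, Spag6l and Ccna1. Ldhc made up most of this sum, its mean going from 3574 to 2956 CPM, so the sum says little about the other markers. Of the 5 without a call, Meiob and Sycp1 kept 82.2% and 86.1% of their wild-type level. Piwil1, Sycp3 and Hormad1 stood at 95.8%, 100% and 103.5%. Of 7 spermatogonia markers, 4 were called higher, with sums of 112 to 124 and 166 to 193 CPM. Kit, whose mean went from 21.7 to 62.2 CPM, made up the largest part of this rise. After the scaling by size factors described below, 1 of the 7, Kit, was still called higher. The sums of the somatic lists were 1299.7 to 1403 and 2743 to 2922 CPM for 8 Sertoli cell markers, 1021 to 1224 and 4296 to 4472 CPM for 7 Leydig cell markers, and 86.9 to 95.3 and 261 to 298 CPM for 8 macrophage markers. All 8 Sertoli, 6 of 7 Leydig and all 8 macrophage markers were called higher. The sum of 6 peritubular and endothelial markers was 72.3 to 94.8 and 95.6 to 120.4 CPM. Of these, the endothelial Cdh5 and Kdr were called higher, a share (33.3%) near that of all genes tested. Cnn1 and Myh11, at 86.8% and 89.6% of wild-type, and Acta2 and Pecam1, at 122% and 156%, were not called. Spink8 was the single gene of the rete, efferent duct and epididymis list in the table, at 5.05 and 2.29 CPM. Of the listed markers, Nanos3 (spermatogonia), Cyp2a4 (Leydig) and Tagln and Tie1 (peritubular and endothelial) were not in the table, and no marker in the table was at 0 in all libraries. The part of these shifts in the results that follow was not tested, and in bulk tissue fewer cells of a type and less RNA per cell cannot be told apart.

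The summed CPM of the IFT and BBSome genes was slightly lower in the mutant testis, and most single genes moved little. Ift140, Ift172, Kifap3 and Ift122 weighed most in the sum. Their means went from 596, 555, 331 and 303 CPM in wild-type to 479, 468, 271 and 265 CPM in mutants. Of all 38 genes, 22 had a log2 fold change below 0. Together the 38 genes held 4064 to 4245 CPM in the wild-type libraries and 3751 to 3781 CPM in the mutant libraries, so that the mutant mean was 90.8% of the wild-type mean and the groups did not overlap. Of the 38, 9 were called lower, 3 were called higher and 26 passed in neither direction (limma on log2(CPM + 0.1), FDR below 0.01). The genes called lower were Ift140, Ift122, Ift172, Ift74, Ift27, Bbs5, Bbs7, Bbs10 and Kifap3, and those called higher were Tulp3, Ift20 and Dync2i1. The 9 lower genes are 23.7% of the members, against 14.2% of the 17126 genes tested, and the 3 higher genes are 7.89%, against 36.3%. The genes tested were of all levels, and shares at the level of the more abundant members are given further on. The median log2 fold change was −0.05 over the members and 0.12 over all genes tested. The libraries of the genotypes did not overlap, the mutants being lower, for 10 members, against 19.5% of all genes tested, and 4 members were without overlap and higher, against 42.8%.

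**Figure D1:**
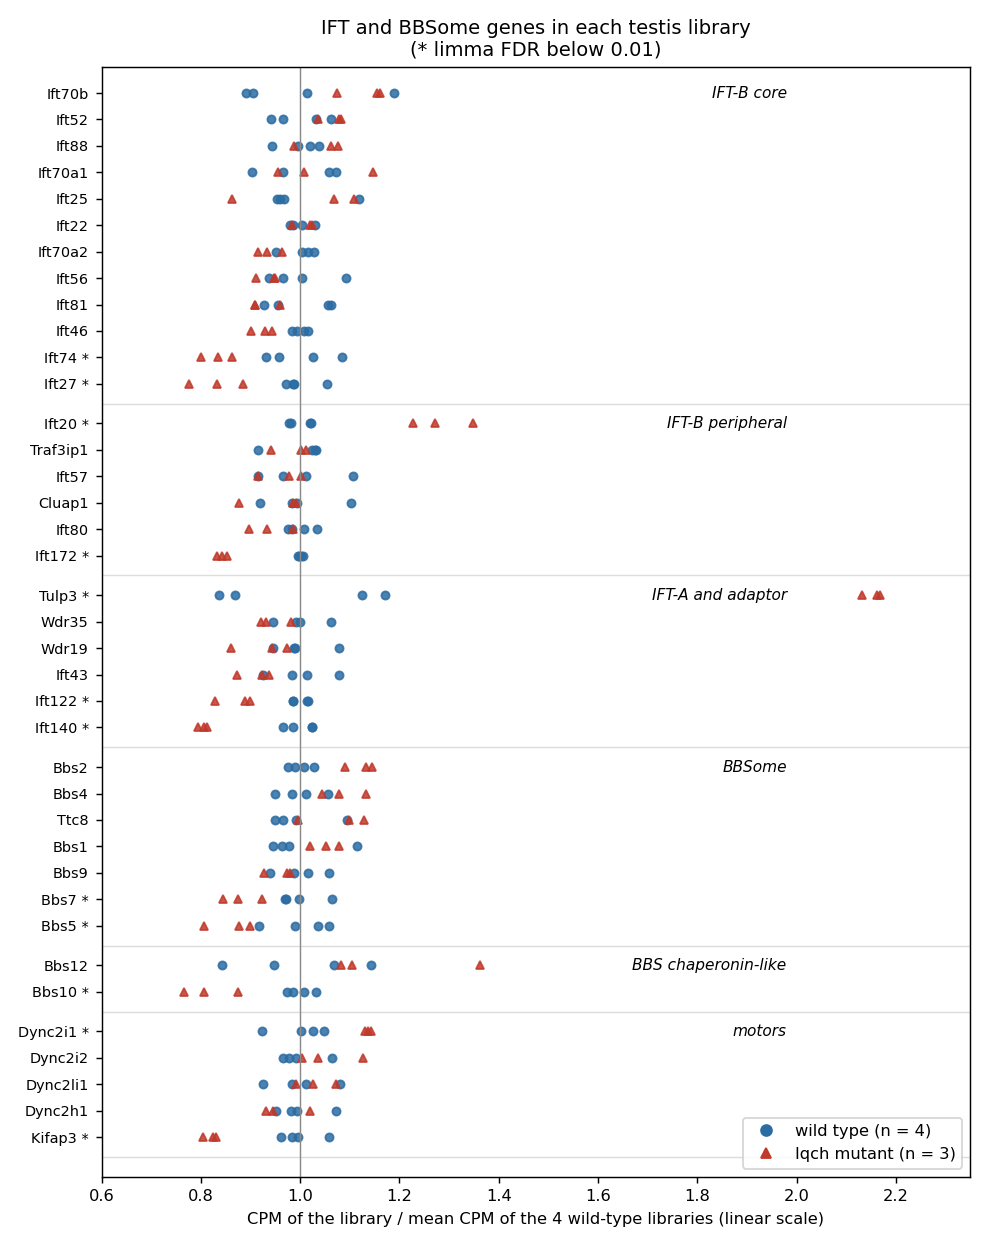
CPM of each library divided by the mean of the 4 wild-type libraries (linear axis) for the 38 members, in blocks by role, with circles for wild-type and triangles for mutant libraries and an asterisk for genes called at an FDR below 0.01. Most triangles sit close to the circles, and those of Tulp3 stand alone on the right, around 215% of the wild-type mean.

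The changes were small. The 9 lower genes had 80.5% to 88.1% of their wild-type level in the mutants, and of the 12 called genes 1, Tulp3, moved by more than 2-fold. The 26 genes without a call lay between 91.1% and 118% of wild-type, with standard errors of 0.04 to 0.13 on the log2 scale. Of these 26, 13 had a log2 fold change above 0 and 13 below. Ift46, at 92.5%, and Bbs2, at 112%, were without overlap between genotypes but missed the threshold, with limma FDRs of 0.0328 and 0.011.

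The scale of the table bears on these counts. CPM share out a fixed total, and the median gene of the table was higher in the mutants. When each library was divided by a median-of-ratios size factor, the median over all genes tested moved from 0.12 to −0.01 and that over the members from −0.05 to −0.19. On that scale 27.0% of all genes tested were called higher and 25.1% lower, and of the members 2 were called higher and 19 lower. The direction and the call held on this scale for 11 of the 12 called members, Dync2i1 being the exception. The 10 genes called lower on this scale alone were Ift43, Wdr19, Wdr35, Ift46, Ift56, Ift70a2, Ift81, Ift80, Bbs9 and Dync2h1, at log2 fold changes of −0.27 to −0.19.

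**Figure D2:**
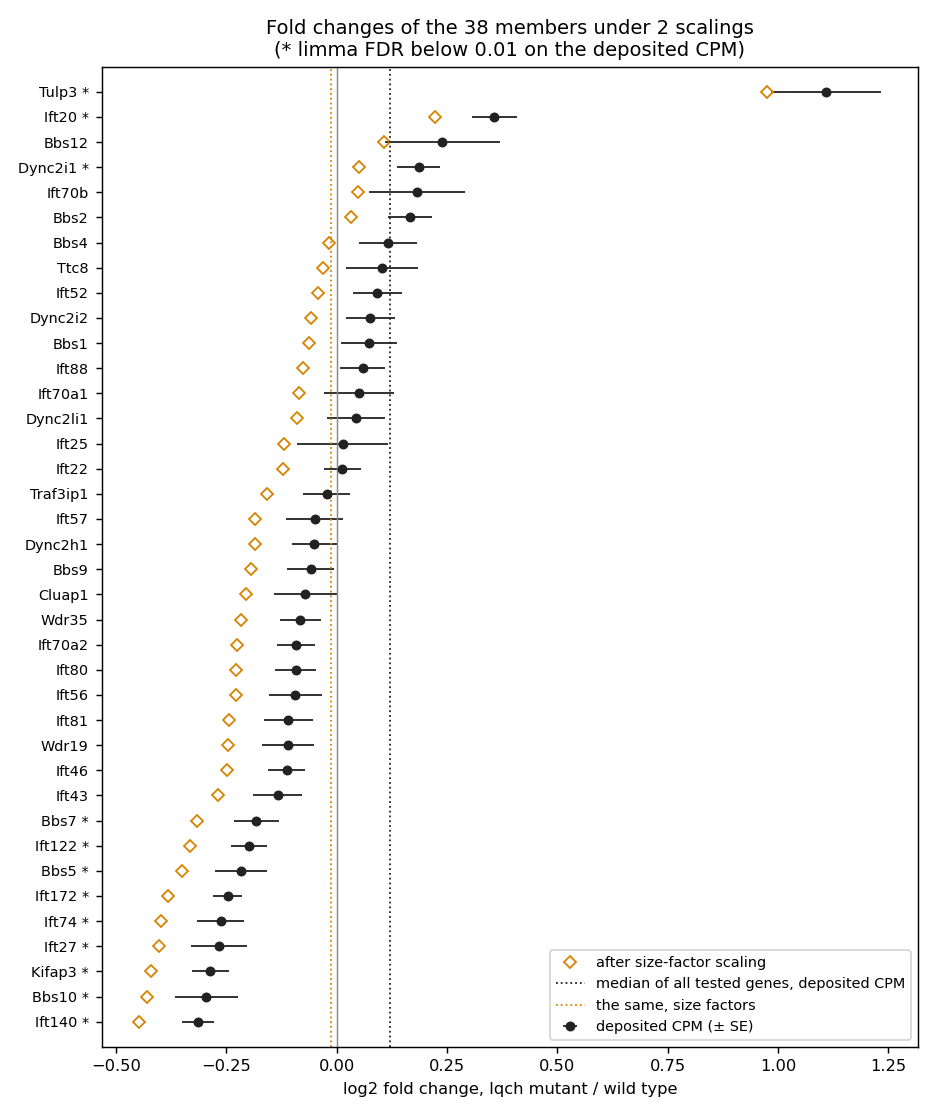
Log2 fold change (mutant over wild-type) of each member on the deposited CPM (filled circles, bars ± SE) and after size-factor scaling (open diamonds), with dotted lines at the medians of all genes tested (0.12 and −0.01). The diamonds sit left of the circles, 22 circles and 32 diamonds lie below 0, and Tulp3 and Ift20 stay above 0 on both scales.

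By summed CPM, IFT-A, the complex of the return journey, kept the smallest share of wild-type of the 6 roles, 86.2%, with Ift140 the largest part of the sum. Its 6 genes with the adaptor summed to 1217 to 1280.4 CPM in wild-type and 1064 to 1091 CPM in mutant libraries, and 2 were called lower and 1 higher (after size factors, 5 and 1). Ift140 (ENSMUSG00000024169, GRCm39 chr17:25235043-25328462, plus strand), a large subunit of the IFT-A core, was the most abundant member of the role per kb of all its annotated exons, at 42.8 CPM per kb in wild-type and 34.5 in mutants. Per kb of the canonical transcript alone, Ift43 stood higher, at 112 CPM per kb in wild-type against 103 for Ift140. Its CPM were 611, 588, 609.7 and 576 in wild-type 1 to 4 and 481, 474 and 484 in mutants 1, 2 and 4. Every mutant value lay below every wild-type value, by more than the spread within either genotype. The means were 596 ± 17.2 (SD, n = 4) and 479.5 ± 5.52 (SD, n = 3), a log2 fold change of −0.31 (SE 0.04, limma FDR 1.1e-05). Ift140 shares 9920 bp with Telo2 and 25891 bp with Tmem204, both on the other strand, and these stood at 6.73 and 3.42 CPM in wild-type and 13.0 and 4.39 CPM in mutants, far under Ift140. The strand setting of the counting is not given in the sources used here.

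Ift122 (ENSMUSG00000030323, chr6:115830431-115903683, plus strand), another IFT-A core subunit, was at 308, 299, 299 and 308 CPM in wild-type and 273, 251 and 269.8 CPM in mutant libraries. Its groups did not overlap either, and the fall was the smaller of the pair, with a log2 fold change of −0.20 (SE 0.04, limma FDR 0.00096). Wdr19, also of the core, and the outer subunits Ift43 and Wdr35 were at 92.6%, 91.1% and 94.4% of wild-type. Their genotypes overlapped, and their log2 fold changes were −0.11, −0.13 and −0.08 (limma FDRs 0.118, 0.0519 and 0.142). Ttc21b, the remaining outer subunit, is no member by the rule on names. It was at 158 ± 7.25 CPM in wild-type (SD, n = 4) and 139 ± 3.00 CPM in mutants (SD, n = 3), without overlap, and was called lower at a log2 fold change of −0.19 (SE 0.05, limma FDR 0.00297).

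Tulp3 (ENSMUSG00000001521, chr6:128298104-128332821, minus strand), which links IFT-A to receptors bound for the membrane of the cilium, had the largest change of the 38. Its CPM were 6.52, 4.84, 4.66 and 6.26 in wild-type and 11.87, 12.04 and 12.07 in mutant libraries. The 3 mutants lay close together and all stood well above the highest wild-type library. The log2 fold change was 1.11 (SE 0.13, limma FDR 7.7e-06), and the mutant mean was 215% of the wild-type mean. Tulp3 was also among the least abundant, at 0.561 CPM per kb of exon in wild-type, above 9.17% of the genes of the table, so that the rise added little to the sum of the role.

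The 6 peripheral IFT-B genes summed to 896 to 922 CPM in wild-type and 825 to 833 CPM in mutant libraries, 90.5% of wild-type. Of them 1 fell, 1 rose and 4 were not called (after size factors, 2 lower and 1 higher). Ift172 (ENSMUSG00000038564, chr5:31410612-31448512, minus strand), the largest peripheral subunit, which takes part in the turn from outward to return transport, was the most abundant of the 38 per kb of all annotated exons, at 80.3 CPM per kb in wild-type and 67.7 in mutants. Per kb of the canonical transcript it was at 102 CPM per kb in wild-type, first among the peripheral genes but below Ift43 and Ift140. Its CPM were 554, 559, 553 and 556 in wild-type and 474, 463 and 468 in mutant libraries. Both genotypes were tight and lay far apart compared with their spread. The means were 555.5 ± 2.46 (SD, n = 4) and 468 ± 5.53 (SD, n = 3), a log2 fold change of −0.25 (SE 0.03, limma FDR 3.6e-05).

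Ift20 (ENSMUSG00000001105, chr11:78426693-78432563, plus strand), the small subunit that also sits at the Golgi apparatus and sorts cargo there, went the other way. Its CPM were 45.0, 47.0, 46.9 and 45.2 in wild-type and 56.5, 62.0 and 58.5 in mutant libraries. All mutants were above all wild-type libraries, and the mean rose to 128% of wild-type, a log2 fold change of 0.36 (SE 0.05, limma FDR 5.7e-05). The ends of Ift20 overlap Tnfaip1 (470 bp) and Tmem97 (349 bp) on the other strand. Tnfaip1 was at 20.7 and 28.1 CPM in wild-type and mutants and Tmem97 at 349 and 301 CPM, and the share of Ift20 reads that could be theirs was not tested. Ift80, Cluap1, Ift57 and Traf3ip1, the other peripheral subunits, overlapped between genotypes, at log2 fold changes of −0.09, −0.07, −0.05 and −0.02 (limma FDRs 0.0964, 0.402, 0.528 and 0.74).

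The 12 core IFT-B genes summed to 889.9 to 951 CPM in wild-type and 841 to 871 CPM in mutant libraries, 93.7% of wild-type. Of them 2 fell, none rose and 10 were not called (after size factors, 6 lower and none higher). Ift74 (ENSMUSG00000028576, chr4:94502652-94584411, plus strand), which with Ift81 forms the part of the train that binds tubulin, was at 198, 213, 225 and 193 CPM in wild-type and 166, 179 and 173 CPM in mutant libraries. The wild-type libraries were spread over a wide range, yet the lowest of them stood above the highest mutant. The log2 fold change of Ift74 was −0.26 (SE 0.05, limma FDR 0.001), and that of its partner Ift81 was −0.11 (limma FDR 0.102) with overlapping groups.

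Ift27 (ENSMUSG00000016637, chr15:78041546-78058331, minus strand) is a small GTPase of the Rab type that pairs with Ift25 and helps the BBSome to leave the cilium. Its CPM were 31.1, 29.1, 29.2 and 28.7 in wild-type and 26.1, 24.6 and 22.9 in mutant libraries. The groups did not overlap, with a log2 fold change of −0.27 (SE 0.06, limma FDR 0.00281), but without mutant 4 the change was −0.22 and the limma FDR 0.0199. Ift25 itself was at 10.32, 10.40, 12.02 and 10.25 CPM in wild-type and 9.28, 11.9 and 11.5 CPM in mutant libraries. The mutants spanned the wild-type range, and the log2 fold change was 0.01 (limma FDR 0.917). Whether the changes of Ift27 and Ift25 differ was not tested, and Ift25 shares 20030 bp with Lrrc42 on the other strand, at 33.5 and 42.8 CPM.

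The other core genes had no call on the deposited CPM. Ift46, Ift56 and Ift70a2 were at log2 fold changes of −0.11, −0.09 and −0.09. Those of Ift22, Ift70a1, Ift88, Ift52 and Ift70b were 0.01, 0.05, 0.06, 0.09 and 0.18, and apart from Ift70b these turned to between −0.12 and −0.04 after size factors. Ift88, the subunit whose loss stops cilia from forming, was at 76.5, 78.4, 79.7 and 72.5 CPM in wild-type and 75.8, 81.5 and 82.7 CPM in mutant libraries, so that the groups overlapped.

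Ift70a1, Ift70a2 and Ift70b code for near-identical copies of 1 subunit, a protein of TPR repeats. Ift70a2 (ENSMUSG00000075272, chr2:75806084-75808514, minus strand) was the most abundant core gene per kb of all annotated exons, at 54.4 CPM per kb in wild-type and 51.1 in mutants. Per kb of the canonical transcript, Ift74 stood higher, at 79.99 CPM per kb in wild-type against 54.4 for Ift70a2. It was at 126, 134.5, 136 and 133 CPM in wild-type and 124, 128 and 121 CPM in mutant libraries, with mutant 2 inside the wild-type range, mutants 1 and 4 below it and a log2 fold change of −0.09 (SE 0.04, limma FDR 0.0835). Ift70a1 and Ift70b stood at 29.5 and 8.59 CPM in wild-type and 30.5 and 9.71 CPM in mutants. The coding sequences of the 3 copies, 1992 bp each in GRCm39, were 94.9% to 95.1% identical in pairs, with runs of up to 460 identical bases, and how reads that fit several copies were counted is not given in the sources used here. The levels of the single copies are therefore uncertain.

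The 7 BBSome subunits summed to 325 to 348 CPM in wild-type and 317 to 332 CPM in mutant libraries, 95.8% of wild-type, the smallest difference of any role, and the sums overlapped. Bbs5 and Bbs7 fell and the other 5 were not called (after size factors, 3 lower). Bbs5 (ENSMUSG00000063145, chr2:69477188-69497915, plus strand), a subunit that binds phosphoinositides of the membrane, was the most abundant of the 7 per kb of exon, at 30.8 CPM per kb in wild-type and 26.5 in mutants. Its CPM were 78.1, 84.3, 88.4 and 90.2 in wild-type and 74.7, 68.8 and 76.6 in mutant libraries. The groups did not overlap, but wild-type 1 and mutant 4 were close to each other. The log2 fold change was −0.22 (SE 0.06, limma FDR 0.00647). Bbs7 (ENSMUSG00000037325, chr3:36627290-36667649, minus strand), a subunit with a β-propeller fold, was at 78.1, 76.1, 83.4 and 75.9 CPM in wild-type and 66.3, 68.6 and 72.3 CPM in mutant libraries. These groups too were separate by a narrow margin, at a log2 fold change of −0.18 (SE 0.05, limma FDR 0.00796).

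Both BBSome calls hung on single libraries. Without wild-type 2, 3 or 4 or mutant 1 or 2, the log2 fold change of Bbs5 was −0.23 to −0.17 and its limma FDR 0.0137 to 0.0378. Without wild-type 1, 2 or 3 or mutant 1 or 2, that of Bbs7 was −0.20 to −0.15, with a limma FDR of 0.0122 to 0.0391. Bbs9 was at −0.06, and Bbs1 (which binds the GTPase Arl6), Ttc8, Bbs4 and Bbs2 were at 0.07, 0.10, 0.12 and 0.17. Of these 5, Bbs2 alone was without overlap, at 39.7, 41.8, 40.2 and 41.0 CPM in wild-type and 44.4, 46.1 and 46.6 CPM in mutant libraries, and its log2 fold change was 0.03 after size factors. Bbs2 shares 8307 bp with Ogfod1 on the other strand, which was at 19.3 and 24.3 CPM, and Bbs4 shares 2297 bp with Adpgk, at 14.0 and 23.9 CPM. In all, 25 members overlap another annotated gene, and for 9 of them such a gene is in the table.

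Bbs10 and Bbs12 code for chaperonin-like proteins that help to assemble the BBSome. Bbs10 (ENSMUSG00000035759, chr10:111134540-111151758, plus strand) was at 2.93 CPM per kb of all annotated exons in wild-type and 2.39 in mutants. Its CPM were 17.95, 17.33, 18.35 and 17.55 in wild-type and 13.6, 15.6 and 14.3 in mutant libraries. All mutants were below all wild-type libraries, at a log2 fold change of −0.29 (SE 0.07, limma FDR 0.00305). Without mutant 1 or mutant 4 the change was −0.25 and −0.29, with limma FDRs of 0.0166 and 0.0128. Bbs12 was at 5.30, 5.97, 6.39 and 4.71 CPM in wild-type and 6.18, 6.05 and 7.62 CPM in mutant libraries, with overlapping groups and a limma FDR of 0.127.

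The 5 motor subunits summed to 690.2 to 728 CPM in wild-type and 649.5 to 676 CPM in mutant libraries, 93.2% of wild-type. Kifap3 (ENSMUSG00000026585, chr1:163607152-163747943, plus strand), which joins the kinesin-2 motor pair to its cargo, was the most abundant per kb of exon, at 27.0 CPM per kb in wild-type and 22.1 in mutants. Its CPM were 318, 350.3, 329.8 and 326 in wild-type and 275, 273 and 266.5 in mutant libraries. The groups lay well apart, and the fall to 82.0% of wild-type gave a log2 fold change of −0.29 (SE 0.04, limma FDR 6.2e-05). The motor chains that Kifap3 joins, Kif3a and Kif3b, are no members and were at 97.5 and 291 CPM in wild-type and 103 and 279 CPM in mutants (limma FDRs 0.139 and 0.432).

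Dync2i1 (ENSMUSG00000042050, chr12:116169879-116226763, minus strand), an intermediate chain of dynein-2, was at 105, 103, 108 and 95.0 CPM in wild-type and 117, 117 and 116 CPM in mutant libraries. The mutants were almost level with each other and above every wild-type library, at a log2 fold change of 0.19 (SE 0.05, limma FDR 0.00513). This call did not hold after size factors, where the log2 fold change was 0.05 (limma FDR 0.386). Leaving out wild-type 2 or mutant 1, 2 or 4 also ended it, at log2 fold changes of 0.18 to 0.19 and limma FDRs of 0.0132 to 0.0184. The heavy chain Dync2h1, the light intermediate chain Dync2li1 and the intermediate chain Dync2i2 were at −0.05, 0.04 and 0.08, with overlapping groups.

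**Figure D3:**
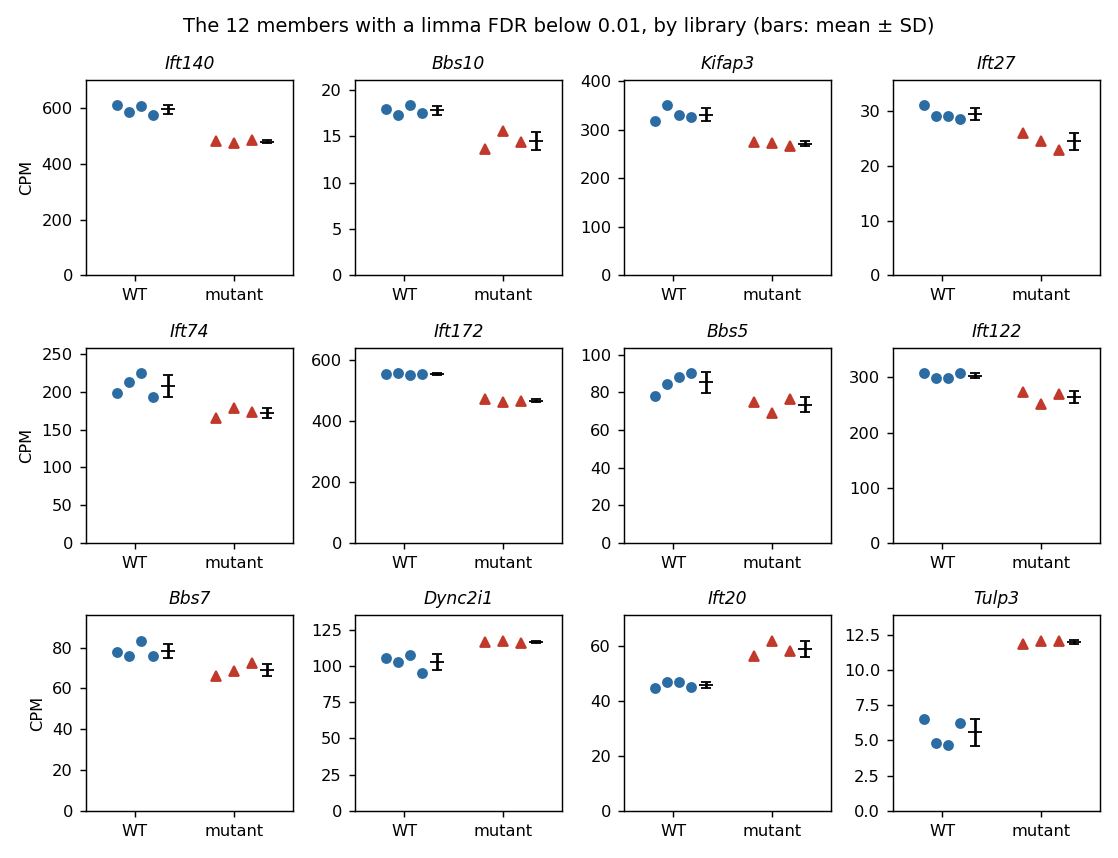
CPM in each library (axes from 0) for the 12 members called at an FDR below 0.01, with circles for the 4 wild-type and triangles for the 3 mutant libraries, and the mean ± SD of each group beside them. The genotypes do not overlap in any panel, 9 genes are lower and 3 higher in the mutants, and the gap is widest in proportion for Tulp3.

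The calls of 7 of the 12 genes held with each library left out in turn and after size factors. These were Ift140, Ift122, Ift172, Ift74 and Kifap3, all lower, and Tulp3 and Ift20, both higher. The 5 lower genes among them include the 4 most abundant members by mean CPM over all libraries, which were Ift140, Ift172, Kifap3 and Ift122.

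Level and change went together across the members. Of the 19 members at or above 74.3 CPM on average over all libraries, 7 were called lower and 1 higher, with a median log2 fold change of −0.11. Of the 19 below that level, 2 were called lower and 2 higher, with a median of 0.07. Across the 38 genes, Spearman's rho between mean CPM and log2 fold change was −0.56 and Pearson's r with log2 CPM −0.57. Without Tulp3 the rho was −0.53, and with CPM per kb of exon it was −0.43. The genes share the same 7 libraries and are no independent replicates. The same held in a weaker form for all genes tested, with a rho of −0.22. Of the 3260 genes at or above 74.3 CPM, 34.3% were called lower and 17.4% higher, with a median of −0.09. The share of lower calls and the median of the 19 abundant members were thus near those of all genes at that level.

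**Figure D4:**
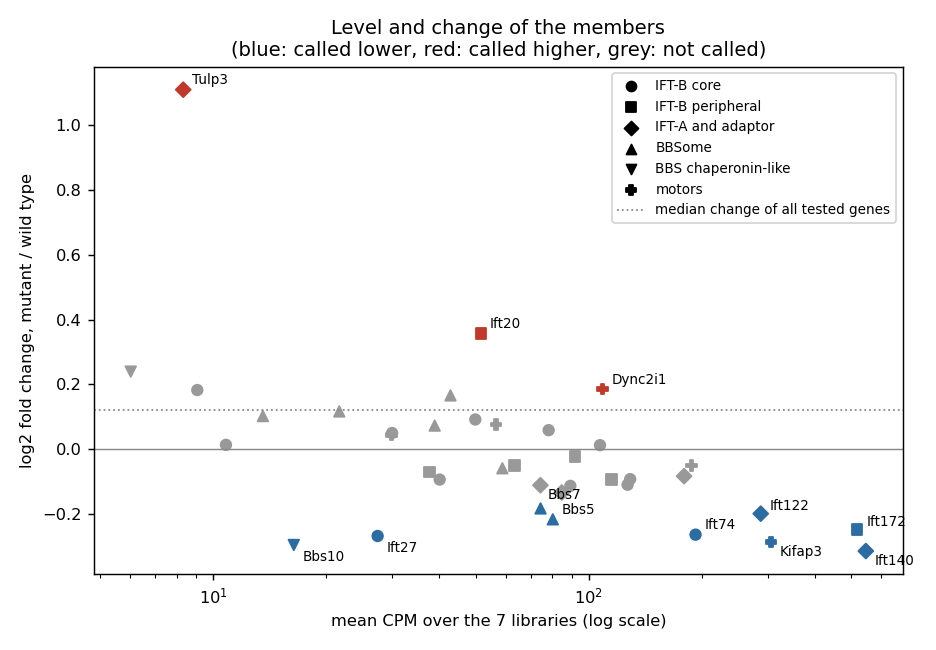
Log2 fold change (mutant over wild-type) of each member against its mean CPM over the 7 libraries (log axis), with marker shape for role, blue for called lower, red for called higher and grey for no call, and a dotted line at the median of all genes tested (0.12). The 4 rightmost members, Ift140, Ift172, Kifap3 and Ift122, are called lower, and Tulp3 stands highest, at 1.11, on the left.

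Other genes of the pathway, listed by their known tie to the trains, gave a like count. Of 38 such partners in the table (cargo and membrane GTPases, kinesin and dynein chains, further IFT-A and BBSome factors), 5 were called higher and 10 lower, with a median log2 fold change of −0.06 (after size factors, 5 and 20, with a median of −0.19). The largest changes among partners and regulators were rises. Kif3c, a kinesin-2 chain best known from neurons, went from 2.36 to 6.01 CPM, and its log2 fold change was 1.31 (SE 0.18, limma FDR 3.5e-05). Ccdc28b, which binds BBSome subunits, went from 7.46 to 18.6 CPM (1.29 on the log2 scale), and Dynlrb1, a roadblock light chain shared by cytoplasmic dyneins, from 11.2 to 25.2 CPM (1.16). The GTPases of vesicle traffic Rab10 and Rab8a rose by 0.44 and 0.34, to 71.0 and 51.6 CPM. Meig1 and Spag16, which act together at the manchette and in the sperm tail, fell by 0.35 and 0.33 on the log2 scale, from 1325 to 1038 CPM and from 126 to 100.04 CPM. All of these had limma FDRs between 9.7e-08 and 9.7e-05.

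Of 11 regulators of ciliary genes in the table, 4 were called lower and 1 higher (after size factors, 8 and 1), with a median log2 fold change of −0.16. Rfx2 and Rfx3, transcription factors that bind the X-box of ciliary genes, fell by 0.15 and 0.18 on the log2 scale (limma FDRs 0.00594 and 0.00819), from 411 to 372 CPM and from 46.0 to 40.6 CPM. Rfx7, of the same family, rose by 0.39 on that scale, from 22.0 to 28.8 CPM (limma FDR 0.00018). Rfx1 and Rfx4 were not called, at log2 fold changes of 0.02 and −0.14. Outside the family, Tcfl5 and Sox30 were called lower, at −0.21 and −0.18 (limma FDRs 0.00039 and 0.00667). Foxj1 had the largest fall of the list, −0.32, without a call (limma FDR 0.0147).

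The X-box is a pair of short sites facing each other. It was searched in GRCm39 on both strands in the 300 bp around each gene's start (250 before, 50 after the first base of the canonical transcript of GENCODE M39), as GTTNCC, 2 free bases and GGNAAC. The full box was found at 5 of the 38 members (13.2%), against 90 of 21770 protein-coding genes (0.413%). A single site of the pair, GTTNCC on either strand, was present at 29 of 38 (76.3%), against 45.1% of all protein-coding genes. By call on the deposited CPM, the full box was found at 1 of the 9 lower, none of the 3 higher and 4 of the 26 uncalled genes. The 5 windows of 30 bases are shown 5′ to 3′ on the strand of the gene because the box was present at a larger share of these genes than of protein-coding genes at large, and the box is in capitals.
Bbs7: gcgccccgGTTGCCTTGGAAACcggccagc
Cluap1: gctccacaGTTTCCAGGGCAACctctggcg
Dync2li1: gtgacgtcGTTGCCATGGCAACcgaggagc
Ift56: ccggcggcGTTGCCGTGGAAACggagctcg
Ift70a2: gttggcttGTTGCCATGGGAACaagcacac

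These windows lie at chr3:36667638-36667667 (minus strand) for Bbs7, chr16:3726472-3726501 (plus) for Cluap1, chr17:84933873-84933902 (plus) for Dync2li1, chr6:38358418-38358447 (plus) for Ift56 and chr2:75808526-75808555 (minus) for Ift70a2. With the first transcribed base as 1 and the base before it as −1, the boxes run from −10 to 4 at Bbs7, −137 to −124 at Cluap1, 16 to 29 at Dync2li1, 23 to 36 at Ift56 and −33 to −20 at Ift70a2. Of the 5 genes Bbs7 alone was called on the deposited CPM, and the log2 fold changes of the other 4 ran from −0.09 to 0.04. After size factors Ift56 and Ift70a2 were called lower as well, at −0.23 each (limma FDRs 0.00451 and 0.000606). A match gives letters in a window and says nothing about binding in these testes.

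Genes of the sperm tail and of its dynein assembly were set beside the transport genes, since both serve the flagellum. Of 32 genes named Dnah, Dnai, Dnal or Dnaaf (axonemal dyneins and their assembly factors), 16 were called lower and 2 higher. Of 55 Cfap and Rsph genes, which build the axoneme and its radial spokes, 25 were called lower and 1 higher. The median log2 fold changes of these groups were −0.18 and −0.17, against −0.05 for the 38 IFT and BBSome genes. The summed CPM of the mutants was 78.3% of wild-type for the axonemal dyneins with their assembly factors. It was 87.7% for the Cfap and Rsph genes, against 90.8% for the members. The difference between these groups of genes was not tested.

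**Figure D5:**
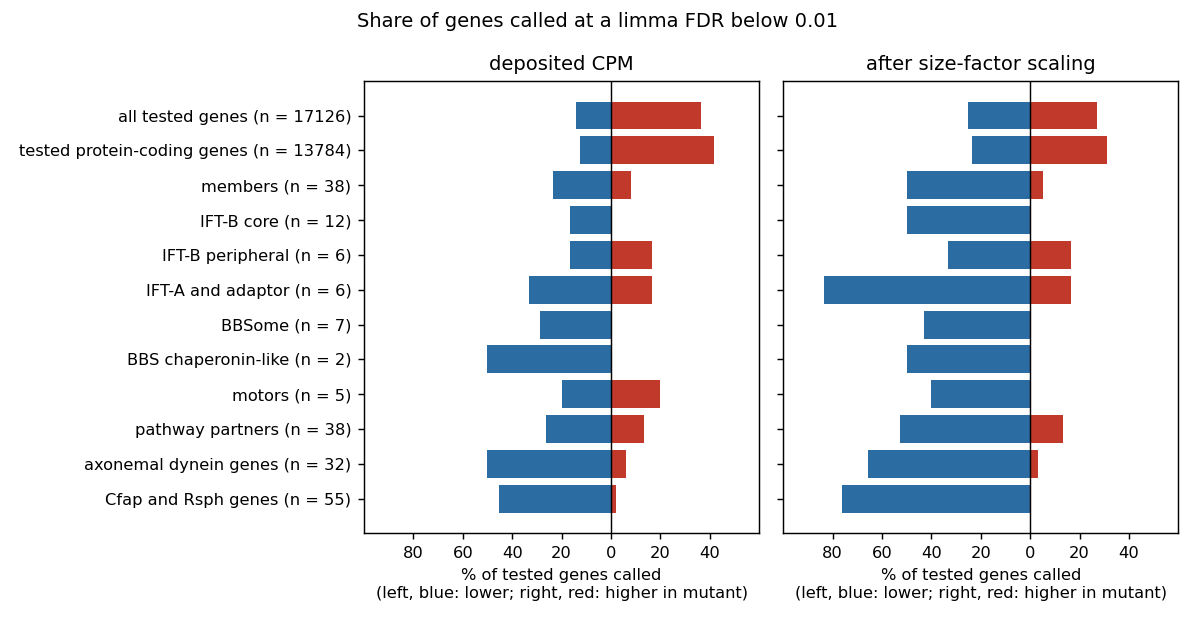
Share of the tested genes called lower (left, blue) and higher (right, red) in the mutants at a limma FDR below 0.01, on the deposited CPM and after size-factor scaling. Rows are all genes tested, the members and their roles, pathway partners and 2 groups of sperm tail genes. The group of axonemal dynein genes includes their assembly factors. Among the members 23.7% were lower and 7.89% higher on the deposited CPM, and 50% and 5.26% after size factors.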

How the data were processed

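Whole-testis RNA-seq libraries, 4 wild-type and 3 Iqch mutant, were compared. The authors used Trimmomatic for trimming, Subread for mapping to GRCm39 and featureCounts for gene counts, removed genes with few reads and deposited CPM. The annotation release and strand setting are not given in the sources used here. Each library sums to 1000000 CPM, and all values (100%) were whole multiples of 1 step. The depths given take that step as 1 read, and they set the counting error only.

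The log2(CPM + 0.1) values were fitted in R 4.3.3 with limma 3.58.1 (trended eBayes) for the 17126 of 17127 genes that reached 2.2 CPM in 2 libraries of either genotype, after a check of the script on simulated data. P-values were adjusted by Benjamini-Hochberg over all of these genes and called at an FDR of 0.01. Fold changes are on the log2(CPM + 0.1) scale, which understates those of low genes. The alternatives left out each library, blocked on the replicate number, divided libraries by median-of-ratios size factors, raised the minimum to 5 CPM or dropped it, and set the pseudocount to 1 or 0.01. Levels per kb use the union of exons in GENCODE M39, which found 17045 genes.

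The members and lists were chosen with earlier results of these data known. Full values went to called members whose genotypes did not overlap, up to 5 with the largest rise and up to 5 with the largest fall. They also went to the most abundant member of each role per kb and to called members that reverse under another scaling (there were none). For up to 8 partners or regulators with the largest called change, group means and log2 fold changes were given without single libraries. Values of further members were given after they were seen. Other software was Python 3.11.15, pandas 2.3.3, NumPy 2.4.6, SciPy 1.17.1, Biopython 1.88 and matplotlib 3.10.9.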

Additional observations from a re-analysis of the deposited data

Results flagged for a closer look

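In 39 groups of 4 wild-type values (each member, and the summed CPM of the members), the highest or lowest library was compared with its nearest neighbour. The gap was divided by the range of the group. The ratio passed Dixon's 95% critical value for 4 samples in 2 groups, and chance gives about 1 in 20. For Ift25, wild-type 3 was highest at 12.02 CPM, with the next library at 10.4 CPM (ratio 0.917). For Traf3ip1, wild-type 4 was lowest at 84.6 CPM, with the next at 94.5 CPM (ratio 0.925). Neither gene was called.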

How the results depend on the processing

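Size factors changed the results most. With them 4294 genes were called lower in place of 2428 (4627 in place of 6212 higher), 19 members lower in place of 9, and the median of the members was −0.19 in place of −0.05. The log2 fold changes of Bbs1 (−0.061), Bbs4 (−0.017), Ttc8 (−0.031), Ift22 (−0.12), Ift25 (−0.12), Ift52 (−0.0425), Ift70a1 (−0.084), Ift88 (−0.0756), Dync2i2 (−0.058) and Dync2li1 (−0.0902) turned from above to below 0 on this scale, and none of these genes was called on either scale. By construction, the scaling lowers all fold changes by about the same amount.

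With each library left out in turn, 5303 to 6111 genes were called higher and 1934 to 2392 lower, and 2 to 3 members were higher and 6 to 8 lower, with a median of −0.08 to −0.05. Left-out libraries turned the direction of 4 uncalled genes, whose ranges were −0.0542 to 0.12 for Ift25, −0.0904 to 0.001 for Ift57, −0.0238 to 0.11 for Ift70a1 and −0.0634 to 0.0102 for Traf3ip1. Among the called genes, the ranges were −0.35 to −0.25 for Bbs10, −0.26 to −0.17 for Bbs5, −0.22 to −0.15 for Bbs7, 0.15 to 0.21 for Dync2i1 and −0.31 to −0.22 for Ift27.

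With the replicate number as a block, 5583 genes were called higher and 2139 lower, and 3 members were higher and 6 lower, with a median of −0.05. Bbs10, Bbs5 and Bbs7 lost their calls under the block. In the labels, same-numbered libraries share only the number. Across genes, their deviations from their genotype means (log2 scale) correlated at 0.026, 0.009 and −0.098 for numbers 1, 2 and 4. Pairs with different numbers correlated at −0.061 to 0.073. These values cannot decide whether same-numbered libraries were prepared together, as the deviations are taken from means of only a few libraries. With a minimum of 5 CPM 4 members were called higher and 9 lower, Bbs2 being the added one. Pseudocounts of 1 and 0.01 and no minimum left the counts at 3 and 9. Canonical transcript length in place of all annotated exons, chosen after seeing the data, changed the most abundant gene per kb from Ift140 to Ift43 in IFT-A and from Ift70a2 to Ift74 in the IFT-B core, and kept it in the other 4 roles. Count models (edgeR, DESeq2) were planned as alternatives if whole reads could be recovered and were not run, as too few low values were present for that recovery to be checked. With 3 mutant libraries, changes near the size of the standard errors (0.04 to 0.13 for members without a call) were not detectable. Changes of more than 2 standard errors also went without a call, as for Bbs2 at 0.17 (SE 0.05) and Ift46 at −0.11 (SE 0.04).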
